A study of Caenorhabditis elegans with 2 samples.

Results

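The regions described here are the autosomal intronic regions of UNC-39 chromatin immunoprecipitation with sequencing (ChIP-seq) in the nematode Caenorhabditis elegans. They are the entries of the pooled region list on chromosomes I to V whose summit, the middle of the region, lay inside the body of a protein-coding gene but in no exon of any protein-coding transcript. On the ce11 genome build 7880 regions met this rule, of 24193 autosomal regions and 30000 in all. The choice used positions only and no signal value. The worms were whole L4 larvae, the last larval stage, of both sexes mixed, from strain OP186, with the genotype unc-119(ed3) III together with the insertion wgIs186, which supplies UNC-39 carrying GFP and FLAG at its C-terminus. Every library came from this strain, so the unc-119 mutant allele and the transgene were shared by all samples, and no untagged strain, other stage or other condition was compared here. There were 2 samples, labelled biological replicates 1 and 2, which form 1 group. A test across samples was therefore not possible, and the main values are given for the pooled list beside the same value in the 2 replicate lists. Values with no list named are those of the pooled list.

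UNC-39 is a homeodomain transcription factor of the sine oculis family, known for roles in the differentiation of mesodermal cells and in neuronal migration. Introns of most C. elegans genes are short, and the long ones, often the first of a gene, are known to hold enhancers and the promoters of shorter transcripts. In ChIP-seq a region is a place where fragments recovered with the tagged protein pile up. In a whole larva that pile sums over all tissues, so that binding in few cells and weak binding in many cannot be told apart. A list of this kind is made to reach down into background, so most of its entries are weak. The signal value used for ranking is the authors' own value for each region, with rank 1 the strongest of its list. Strong here means high in rank only. The deposited −log10 q, where a smaller value is weaker evidence against background, was 1.94 for the strongest member and 1.25 for that at rank 63. It was 0.365 for the member at rank 493 and 0.148 for that at rank 1988.

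The sequences below are 201 bases around the summit, on the plus strand of ce11, for members that ranked high in both replicates or that show the words counted further on. Capitals mark matches on either strand to the 5 words searched. These were the GA repeat word GAGAGA, the CA repeat word ACACAC, the word CGTCTC, and both TGATAC and its variant TGACAC, forms of the core described for sine oculis family proteins in other animals. Matches can overlap, as where a GA repeat runs into CGTCTC read on the other strand. The first 3 words were taken from an earlier reading of these data.
Y43F8B.2, chrV:19529322-19529522: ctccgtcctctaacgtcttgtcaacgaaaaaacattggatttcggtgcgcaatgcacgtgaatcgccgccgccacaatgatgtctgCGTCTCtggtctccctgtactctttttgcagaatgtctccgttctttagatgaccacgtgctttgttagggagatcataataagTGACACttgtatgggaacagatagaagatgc
Y111B2A.12, chrIII:12612529-12612729: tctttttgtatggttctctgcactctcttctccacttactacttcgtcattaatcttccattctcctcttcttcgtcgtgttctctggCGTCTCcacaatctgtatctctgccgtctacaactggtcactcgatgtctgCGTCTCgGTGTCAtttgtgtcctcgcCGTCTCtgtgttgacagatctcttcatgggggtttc
W06H8.6, chrV:6224592-6224792: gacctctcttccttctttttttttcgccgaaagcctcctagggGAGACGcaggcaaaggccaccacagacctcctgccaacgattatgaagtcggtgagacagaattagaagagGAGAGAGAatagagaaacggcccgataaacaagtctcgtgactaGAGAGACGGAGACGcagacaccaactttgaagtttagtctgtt
pqn-41, chrIII:1921322-1921522: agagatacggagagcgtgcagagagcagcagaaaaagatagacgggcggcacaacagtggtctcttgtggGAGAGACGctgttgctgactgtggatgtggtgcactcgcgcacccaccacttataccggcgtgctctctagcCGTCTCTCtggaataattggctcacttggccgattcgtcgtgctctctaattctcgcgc
fkh-7, chrIV:5607453-5607653: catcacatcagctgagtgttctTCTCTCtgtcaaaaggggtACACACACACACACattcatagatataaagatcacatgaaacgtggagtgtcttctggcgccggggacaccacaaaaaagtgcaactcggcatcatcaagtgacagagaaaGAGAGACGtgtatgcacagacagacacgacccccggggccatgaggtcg
daf-5, chrII:14044113-14044313: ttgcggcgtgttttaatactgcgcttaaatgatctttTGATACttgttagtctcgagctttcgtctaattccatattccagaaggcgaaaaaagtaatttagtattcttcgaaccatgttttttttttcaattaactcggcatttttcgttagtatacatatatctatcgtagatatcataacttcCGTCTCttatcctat

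The first of these sequences lies in intron 4 of Y43F8B.2 and the second in intron 4 of Y111B2A.12, and they were the strongest intronic regions of all. They share the stretch GATGTCTGCGTCTC, 14 bases long and holding CGTCTC, which a search for the longest word common to both windows found. The stretch occurred in 1 of the 7759 members beyond rank 500 and in 2 of the 16313 autosomal regions outside introns. The W06H8.6 and pqn-41 windows carry both GAGAGA and CGTCTC. The fkh-7 window, in intron 6 of 9 of this forkhead gene, adds a run of CA repeats. The daf-5 window is poorer in G+C, at 32.8% against 55.7% for pqn-41, and is one of those with TGATAC.

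The strongest member lay in intron 4 of 7 of Y111B2A.12 at chrIII:12612429-12612828, in an intron of 7076 bases. Its signal value was 40.2 in the pooled list, 20.1 in replicate 1 and 20.0 in replicate 2, at ranks 8, 30 and 6. The member in the 9619-base intron 4 of Y43F8B.2, at chrV:19529222-19529621, had 39.8, 23.0 and 19.4, at ranks 9, 15 and 7. Both were near the top of every list. The third, at chrI:3824204-3824603 in the first intron of unc-108, which encodes a Rab GTPase of membrane traffic, had 38.0, 25.2 and 10.4, at ranks 10, 9 and 151. The fourth, at chrI:9722077-9722476 in the first intron of ocrl-1, a phosphoinositide phosphatase gene, had 37.2, 15.7 and 21.8, at ranks 11, 96 and 3. Its summit lay 439 bases upstream of a start of the neighbouring gene eat-16 (an RGS protein gene) and inside the annotated non-coding RNA genes C16C2.7 and C16C2.8. The fifth, in a 360-base intron of the dynein heavy chain gene dhc-4 at chrIII:10989451-10989850, had 35.0, 19.1 and 18.8, at ranks 16, 38 and 10. These 5 differed in which replicate ranked them higher, which was replicate 1 for unc-108 and replicate 2 for ocrl-1.

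Further down, the replicates parted more often. The member in intron 9 of T04C9.1 had signal values of 27.1 pooled, 18.8 in replicate 1 and 5.73 in replicate 2, where its rank was 3254. The member in the first intron of tlk-1, the Tousled-like kinase gene, stood at rank 75 in the pooled list and 41 in replicate 1, but the list of replicate 2 had nothing there. In unc-73, a gene of axon guidance, the member at pooled rank 81 ranked 44 in replicate 1 and 10484 in replicate 2. The reverse held in tent-5, a terminal nucleotidyltransferase gene, where replicate 1 ranked the member 3892 and replicate 2 ranked it 34. It also held in msi-1, the Musashi RNA-binding protein gene, with ranks 1525 and 36. The member in intron 2 of atf-7, a bZIP transcription factor gene of the immune response, had 24.4 pooled, 11.4 and 12.3, and its summit lay 59 bases upstream of an internal start of atf-7. Of the 25 strongest members, the rest fell between signal values of 22.4 and 29.3. Among them were F58G1.7, W06H8.6, K10C3.4, F53C11.5, F43C1.7, Y62E10A.13, F40F11.3, ZK353.10, T28F4.1, the anion transporter gene abts-1, the patched-related gene ptr-22, the palmitoyltransferase gene dhhc-2, pqn-41, and ppfr-1, which encodes a regulatory subunit of protein phosphatase 4.

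Over all members the replicates shared little order. A member was counted in a replicate when it overlapped a region there by at least 1 base, and it took the rank of the strongest such region. By this count 2401 of 7880 members (30.5%, 95% interval 29.5 to 31.5) had a region in both replicates, against 30.7% of all autosomal regions. Another 2918 had one in replicate 1 alone, 1820 in replicate 2 alone and 741 in neither. Over the 2401 the Spearman correlation of the 2 ranks was 0.076, a description across regions that share a pooled list. Within rank 2000 of both replicates there were 71 members (0.901%, 0.704 to 1.14), against 0.785% of all autosomal regions, 33 of 7807 exonic ones (0.423%, 0.291 to 0.593) and 86 of 8506 intergenic ones (1.01%, 0.809 to 1.25). The 71 came from 54 distinct pairs of replicate regions in 46 host genes, because overlapping members can share 1 replicate region. All intervals here are exact Clopper-Pearson intervals that cover counting error over regions, not the spread between worms.

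Repetition was much commoner at the top, which is partly built in, since the pooled list was made from both replicates. Of the 121 members ranked up to 500 in the pooled list, 111 (91.7%, 85.3 to 96.0) had a region in both replicates and 41 (33.9%, 25.5 to 43.0) were within rank 2000 of both. For exonic regions of the same ranks the second count was 13 of 96 (13.5%, 7.41 to 22.0), and for intergenic ones 56 of 170 (32.9%, 25.9 to 40.6). The intronic and intergenic intervals overlapped, and the exonic interval lay below both. Leaving out members without a replicate rank, the median rank of these strong members was 357 in replicate 1 and 1517 in replicate 2. Of the 121, 10 had a region in replicate 1 only.

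**Figure D1:**
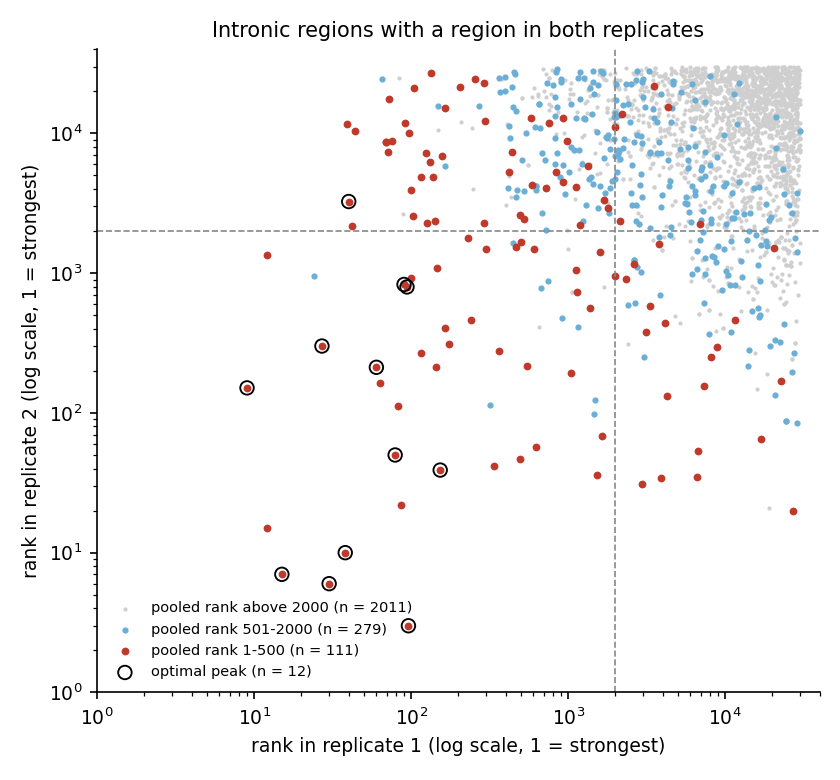
Rank in replicate 1 (x axis) against rank in replicate 2 (y axis), both on log scales, for the 2401 intronic regions with a region in both replicates, coloured by pooled rank, with optimal peaks ringed and dashed lines at rank 2000. The 71 members in the lower left field are within rank 2000 of both, and 41 of them are among the 121 members up to pooled rank 500.

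Ordered by the worse of the 2 replicate ranks, the first member was that of Y43F8B.2, with 15. Next came a pair of overlapping members in the first intron of let-526, which encodes a subunit of the SWI/SNF chromatin remodelling complex. Both touched the same replicate regions, with a signal value of 23.4 in replicate 1 and 16.6 in replicate 2, at ranks 12 and 15. In the pooled list they stood at ranks 225 and 1168, far lower than in either replicate. Y111B2A.12 (worse rank 30), dhc-4 (38), a pair in abts-1 (79), a member at one end of intron 5 of ppfr-1 (86), ocrl-1 (96) and Y17D7C.2 (112) followed. The Y17D7C.2 window was poor in G+C, at 27.9%, and none of the 5 words was found in it.

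The optimal list, the authors' set of peaks chosen by how well ranks repeat, held 63 peaks, of which 42 were autosomal and 12 were members. That was 0.152% of members (0.0787 to 0.266), against 0.174% of all autosomal regions, so being an optimal peak was about as common in introns as elsewhere. The 12 were the strongest 12 members in order, down to abts-1. Of them 7 lay in introns over 2000 bases, 6 in a first intron, 6 within 100 bases of an annotated non-coding gene and 4 within 500 bases of a protein-coding start. Rank up to 500 in the pooled list was reached by 121 members (1.54%, 1.28 to 1.83), against 1.60% of all autosomal regions, again close to the background.

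Introns took about their share of the genome. Members were 32.6% of autosomal regions (32.0 to 33.2), and the corresponding share was 32.8% in the list of replicate 1 and 31.8% in that of replicate 2. Bases that are intronic by the same rule made up 33.8% of the autosomes. The share changed little with rank: 31.3% of regions up to rank 500 (121 of 387, 26.7 to 36.1), 32.0% above 500 and up to 2000, 30.8% above 2000 and up to 10000, and 33.3% of the weakest. In the 387 strongest autosomal regions exons held 24.8% and intergenic sequence 43.9%, against 30.4% and 35.8% of bases. The median signal value of members, 7.51 over a range of 5.58 to 40.2, was near the 7.63 of exonic and the 7.65 of intergenic regions.

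Along the chromosomes the density of members was even. Chromosome V held 1770, chromosome I 1597, chromosome IV 1587, chromosome III 1544 and chromosome II 1382. Per Mb of intron this was 292, 266, 276, 290 and 291, against 339 on the X chromosome, whose 1843 intronic regions are not members. Chromosome IV held 22 members up to rank 500 and no optimal peak, while chromosomes I and III held 4 optimal peaks each. The intronic share of regions lay below that of bases on chromosome I, 36.7% against 39.9%, and the shares were nearly equal on chromosomes II and V.

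Strong members lay in long introns more often than weak ones did. Each member was given the intron of its host transcript with the longest spliced length. Introns over 2000 bases held 29.7% of members (28.7 to 30.7) and 27.8% of intronic bases. Among members up to rank 500 the share was 52.1% (63 of 121, 42.8 to 61.2), and it was 39.9%, 32.8% and 27.3% in the successive lower rank classes. Replicate 1 gave 52.1%, 33.6%, 30.9% and 26.9%. Replicate 2 gave 35.0% (41 of 117), 41.7%, 33.1% and 27.3%, so that there the top class was not the highest. In all 3 lists the weakest class was within 1 percentage point of the share of bases. The median intron length of the 121 strongest was 2052 bases, against 839 for the weakest class.

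As a ratio to bases, the share was higher still for introns over 5000 bases. These held 12.0% of intronic bases and 14.7% of members, but 31.4% of members up to rank 500 (38 of 121, 23.3 to 40.5), with 35.0% in replicate 1 and 20.5% in replicate 2. Introns of 100 bases or less, the commonest kind in this genome, held 9.06% of bases, 11.2% of members and 7.44% of those up to rank 500. Of the 71 members within rank 2000 of both replicates, 36 lay in introns over 2000 bases (50.7%, 38.6 to 62.8) and 19 in introns over 5000 (26.8%). The whole 400 bases were intronic in 3659 members (46.4%), and in 74 of the 121 strongest (61.2%). A short intron cannot hold such a region, so its members always reach into exons.

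**Figure D2:**
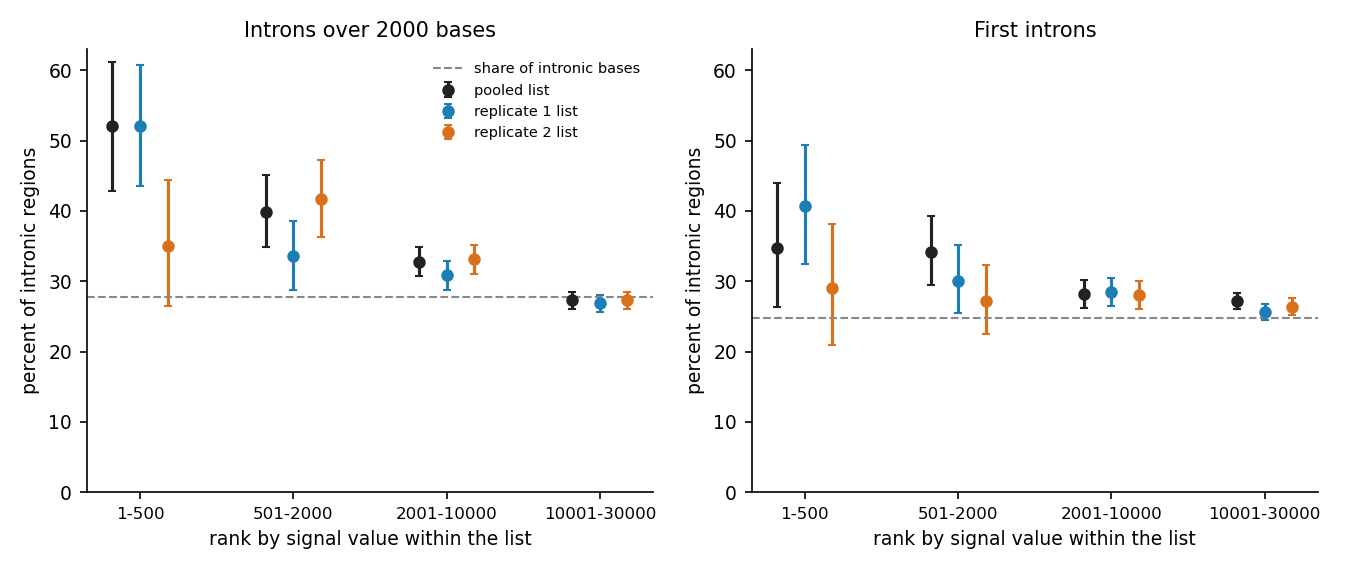
Percent of intronic regions in introns over 2000 bases (left) and in first introns (right) by rank class of the pooled and both replicate lists, with exact 95% intervals as bars and the share of intronic bases as a dashed line. In the strongest pooled class 52.1% are in long introns and 34.7% in first introns, against 27.8% and 24.8% of bases, and replicate 2 is lower, at 35.0% and 29.1%.

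First introns were also commoner among strong members, to a smaller degree and not clearly in replicate 2. They held 24.8% of intronic bases, 27.9% of members (26.9 to 28.9) and 34.7% of members up to rank 500 (42 of 121, 26.3 to 43.9). Up to rank 500 the share was 40.7% in replicate 1 (57 of 140, 32.5 to 49.3), against 25.6% in its weakest class. In replicate 2 it was 29.1% (34 of 117, 21.0 to 38.2) against 26.4%, and that interval includes the 24.8% of bases. Second introns held 16.2% of bases and 6.61% of the strongest members (8 of 121), and introns from the fourth on held 46.2% and 49.6%. Since first introns are long, length and order were then crossed, as the number of members up to rank 2000 per Mb of intron. In introns of more than 2000 and up to 5000 bases the density was 31.5 per Mb in first and 20.1 in later introns. In those over 5000 bases it was 35.9 and 29.3. The first of these differences had the same sign in both replicates, 26.4 against 15.5 and 24.2 against 20.8. The second did not, with 42.5 against 29.3 in replicate 1 and 21.3 against 27.3 in replicate 2. First introns were also denser among those of more than 500 and up to 2000 bases, at 21.0 against 10.9. There replicate 1 had 22.6 against 12.7 and replicate 2 had 12.7 against 11.7. In introns of more than 100 and up to 500 bases the pooled densities were 12.6 and 13.3. In introns of 100 bases or less they were 19.2 and 19.9, so neither of these 2 classes had a pooled advantage for the first.

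**Figure D3:**
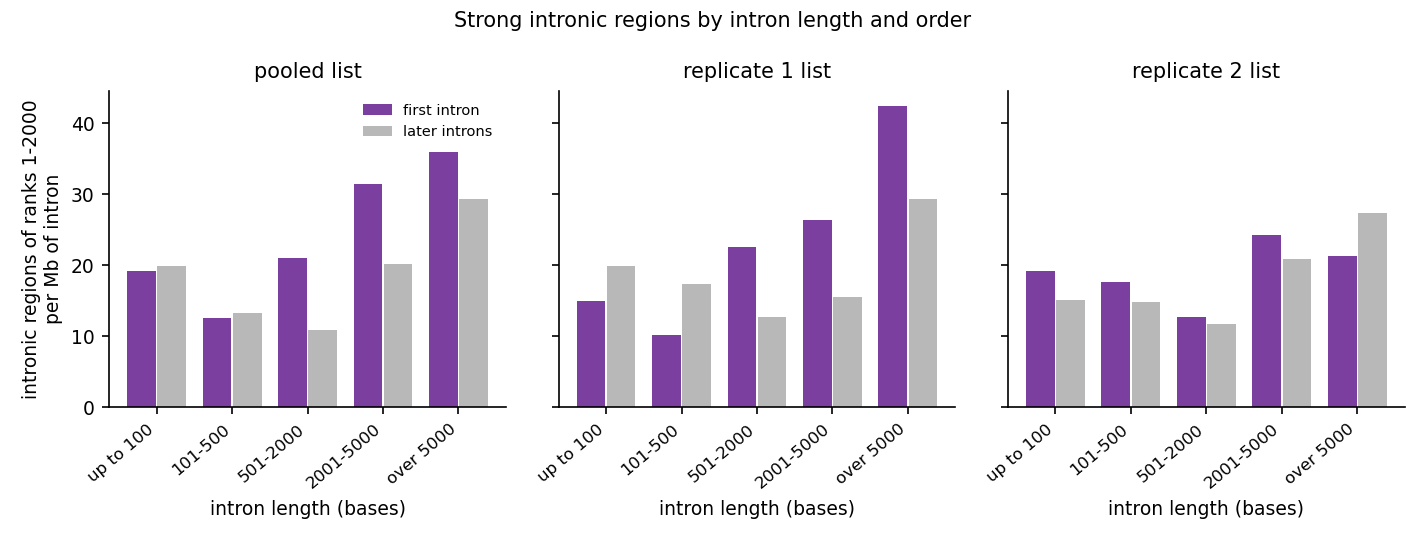
Number of intronic regions of ranks 1 to 2000 per Mb of intron (y axis) by intron length class (x axis), for first introns (purple bars) and later introns (grey bars), in the pooled and replicate lists. The pooled density rises to 35.9 per Mb in first introns over 5000 bases, and the order of first and later introns in that class is opposite in the 2 replicates.

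Within long introns no end was preferred over all members. Each intron over 2000 bases was divided into 4 equal stretches from the 5′ splice site, and of the 2337 members there 585, 579, 564 and 609 lay in the successive ones. Among the 63 that ranked up to 500 the last stretch held 23 (36.5%) and the first 8 (12.7%). Replicate 1 had 26 of 73 in the last (35.6%) and 14 in the first (19.2%). Replicate 2 had 13 of 41 in each (31.7%), so the skew was not seen in both. Within 500 bases of any protein-coding transcript start, the outermost start of the host included, were 1878 members (23.8%, 22.9 to 24.8). The nearest start belonged to the host in 1750 of them and to another gene in 128. The share near a start did not rise steadily with rank. It was 21.5% up to rank 500 (26 of 121, 14.5 to 29.9), 30.2% in the next class and 23.1% in the weakest. No such share was taken for intronic bases or other regions. Members upstream of the start they were near, whether a start of the host or of a neighbour such as eat-16 at ocrl-1, were 7.84% of all (618). They were 12.4% of those up to rank 500 (15 of 121, 7.11 to 19.6), 15.1% of the next class and 6.88% of the weakest. In the replicates the top and weakest classes had 15.0% and 6.62%, and 15.4% and 7.06%.

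Sequence composition moved with rank in all lists. The G+C content of the 201 bases was 41.9% ± 8.08 (SD over 121 members) up to rank 500 and 34.7% ± 6.77 (SD, 5405 members) in the weakest class. In replicate 1 these means were 39.7% and 34.4%, and in replicate 2 they were 42.5% and 35.1%. Intronic windows of the same length spaced over the autosomes had 33.8% ± 7.27. All autosomal regions had 41.2% ± 7.51 (SD, 387 regions) up to rank 500 and 36.0% in the weakest class, so the trend was not particular to introns. In members the share of bases marked as repeats or low complexity in the reference fell from 42.2% in the weakest class to 24.5% in the strongest. Over all autosomal regions it fell from 33.1% to 23.5%. Members could be placed well, since 97.6% of their 31-base words occur once in the genome, against 89.9% for the intronic windows. The 121 strongest included exceptions. dhc-4 (71.9%) and F58G1.7 (59.6%) each lay beside an annotated small nuclear RNA (snRNA) gene, ZC455.1 (63.7%), nhr-41 (67.3%) and C14B9.3 (71.9%) beside transfer RNA genes, and a ppfr-1 member at rank 346 had 1.75%.

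The word GAGAGA was found in 11.9% of members and in 13.2% of all autosomal regions. It was found in 38.0% of members up to rank 500 (46 of 121, 29.3 to 47.3), in 19.4% of the next class and in 10.3% of the weakest, and in 8.49% of the intronic windows. Replicate 1 had 26.4% at the top and 10.7% at the bottom, and replicate 2 had 29.1% and 10.6%. Over all autosomal regions up to rank 500 the share was 30.7%. Words rich in G depend on composition, so the shares were also taken within classes of G+C content. Below 35% G+C, GAGAGA was in 28.6% of members up to rank 500 (8 of 28, 13.2 to 48.7) and in 6.21% of those ranked above 2000. Between 35% and 45% these shares were 39.6% and 14.7%, and from 45% on they were 42.2% and 24.7%. From 45% on the intervals (27.7 to 57.8 and 21.2 to 28.5) overlapped. The part of composition in the shares was not tested.

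CGTCTC, the word in both of the strongest members, was in 6.57% of members, 18.2% of those up to rank 500 (22 of 121, 11.8 to 26.2) and 5.51% of the weakest. The top share was 14.3% in replicate 1 and 25.6% in replicate 2. Over all autosomal regions up to rank 500 CGTCTC was in 18.9% (15.1 to 23.1), with 14.4% and 20.7% in the replicates. Its higher share at the top was thus not particular to introns. From 45% G+C on, CGTCTC was in 33.3% of members up to rank 500 and in 18.6% of those above rank 2000, but the intervals (20.0 to 49.0 and 15.5 to 22.0) overlapped. Between 35% and 45% the shares were 10.4% and 8.07%, and below 35% they were 7.14% and 2.82%, again with overlapping intervals. ACACAC was in 25.6% of members up to rank 500 (31 of 121) and in 7.58% of all, against 20.9% and 7.65% of autosomal regions. Of the sine oculis family core words, TGATAC did not rise in this way. It was in 5.85% of members, 4.96% of those up to rank 500 (6 of 121, 1.84 to 10.5) and 5.64% of the weakest. TGACAC was in 7.55%, 9.09% (11 of 121, 4.63 to 15.7) and 7.05%. Its top share was also above the weakest class in replicate 1 (14 of 140 against 6.56%) and replicate 2 (14 of 117 against 7.69%). In every list these intervals overlapped. The other words came from an earlier reading of these data, so whether they rose more than TGACAC was not tested. A match is a description of letters, and its absence says nothing about the protein.

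Annotated non-coding genes lay within 100 bases of 540 members (6.85%, 6.30 to 7.43), fewer than the 8.96% of all autosomal regions. Among members up to rank 500 the share was 20.7% (25 of 121, 13.8 to 29.0), with 16.4% in replicate 1 and 22.2% in replicate 2, against 6.14% in the weakest class. All autosomal regions up to rank 500 had 15.8% (61 of 387, 12.3 to 19.8), with 14.1% and 17.3% in the replicates, so the higher share at the top was not particular to introns. Most of the genes beside these 25 members were of the annotation class ncRNA, short transcripts of mostly unknown role. This class stood at 18 of 121 strong members (14.9%, 9.06 to 22.5) and at 2.65% of the weakest. Over all autosomal regions up to rank 500 its share was 9.30% (36 of 387, 6.60 to 12.6), and the 18 members are among those 36. The overlap of this interval with that of the members is therefore partly built in. piRNA genes, which make the small RNAs of the germ line, were beside 197 members (2.50%) and beside 1 of the 121 (0.826%, 0.0209 to 4.52). In replicate 1 they were beside 3 of 140. Small structural RNAs were also there in single cases, with snRNA genes at dhc-4 and F58G1.7 and transfer RNA genes at ZC455.1, nhr-41 and C14B9.3. At ppfr-1 and let-526 several strong members each had an ncRNA or antisense RNA gene beside them. Whether reads at these places followed the host or the small gene was not tested.

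**Figure D4:**
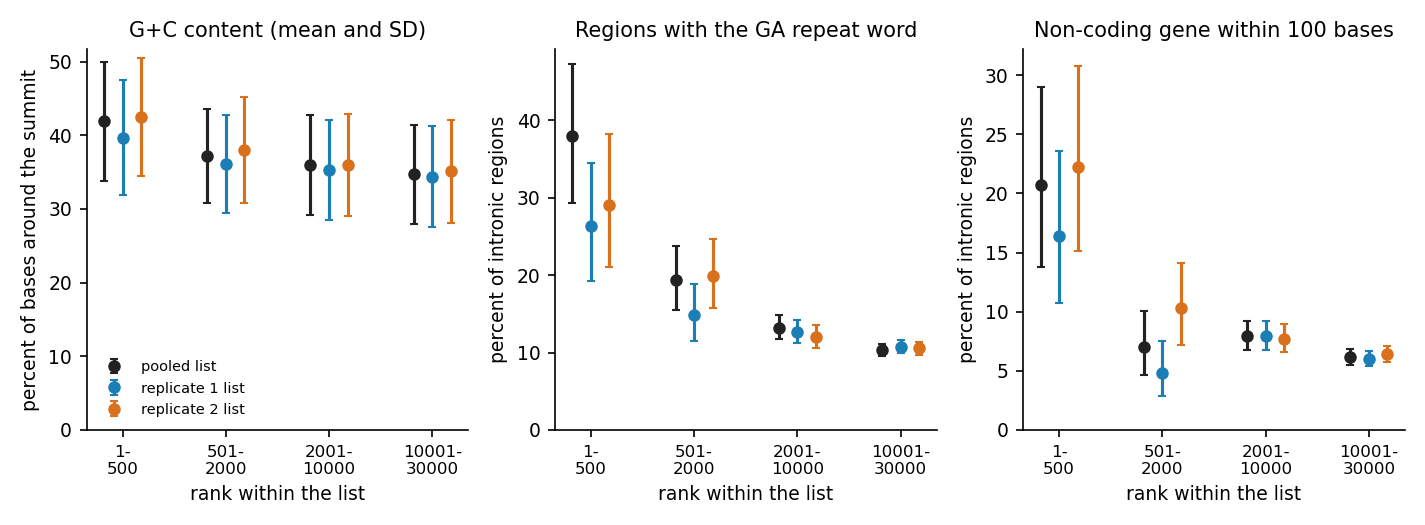
G+C content of the 201 bases (left, mean and SD over regions), percent of intronic regions with the word GAGAGA (middle) and percent with an annotated non-coding gene within 100 bases (right), by rank class of the pooled and replicate lists, with exact 95% intervals as bars in the middle and right panels. All 3 measures are highest in the strongest class of each list, at 41.9%, 38.0% and 20.7% in the pooled one.

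The members fell into 4488 host genes, 27.1% of the 16586 genes with intronic sequence. A single member was found in 2983 hosts (66.5%), while 246 hosts with at least 5 held 1796 members (22.8%). The host with most was mbk-2, a dual-specificity kinase gene of the egg-to-embryo transition, with 18 in 21.9 kb of intron, or 8.22 per 10 kb, where all autosomal introns together had 283 per Mb. Its strongest, at rank 218, lay 26 bases upstream of a start inside the gene, with signal values of 18.7 pooled, 12.9 in replicate 1 and 6.85 in replicate 2. C14B4.2 followed with 17, of which 9 lay in its first intron of 13105 bases. ppfr-1 and lmd-3 had 16 each, then jun-1, kin-1 and crh-1 with 15 and fkh-7, unc-89 and rhgf-3 with 14. Several of these encode signalling proteins and transcription factors: jun-1 a Jun protein, kin-1 the catalytic subunit of protein kinase A and crh-1 the CREB factor, while unc-89 encodes a giant muscle protein. Many members did not always mean strong ones, since lmd-3, crh-1, unc-89 and rhgf-3 had none up to rank 2000. The other hosts named here had 2 to 4 each.

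Several hosts held both many members and strong ones. In ppfr-1, 10 of the 16 lay in intron 5, which spans 10404 bases. The members at both ends of that intron had pooled signal values of 23.3 and 22.0, at ranks 76 and 106. The first had 18.9 in replicate 1 and 3.84 in replicate 2, while the second had 16.0 and 15.3, so that only the second was high in both. In let-526, 11 members fell in 9.55 kb, or 11.5 per 10 kb, and 5 of them ranked up to 2000, the most of any host. pqn-41, which encodes a glutamine-rich protein of linker cell death, had 4 up to rank 2000, all in its 10372-base intron 14, with G+C contents of 42.3% to 55.7%. C14B4.2 also had 4, in introns 1, 10, 14 and 16. ncl-1, named after its values were seen and known for limiting nucleolar size, had 4, of which 2 at ranks 171 and 182 overlapped the same replicate regions. No member lay in unc-39 itself, and unc-119, whose mutant allele the strain carries, held 3, the strongest at rank 1184 with a signal value of 13.9.

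**Figure D5:**
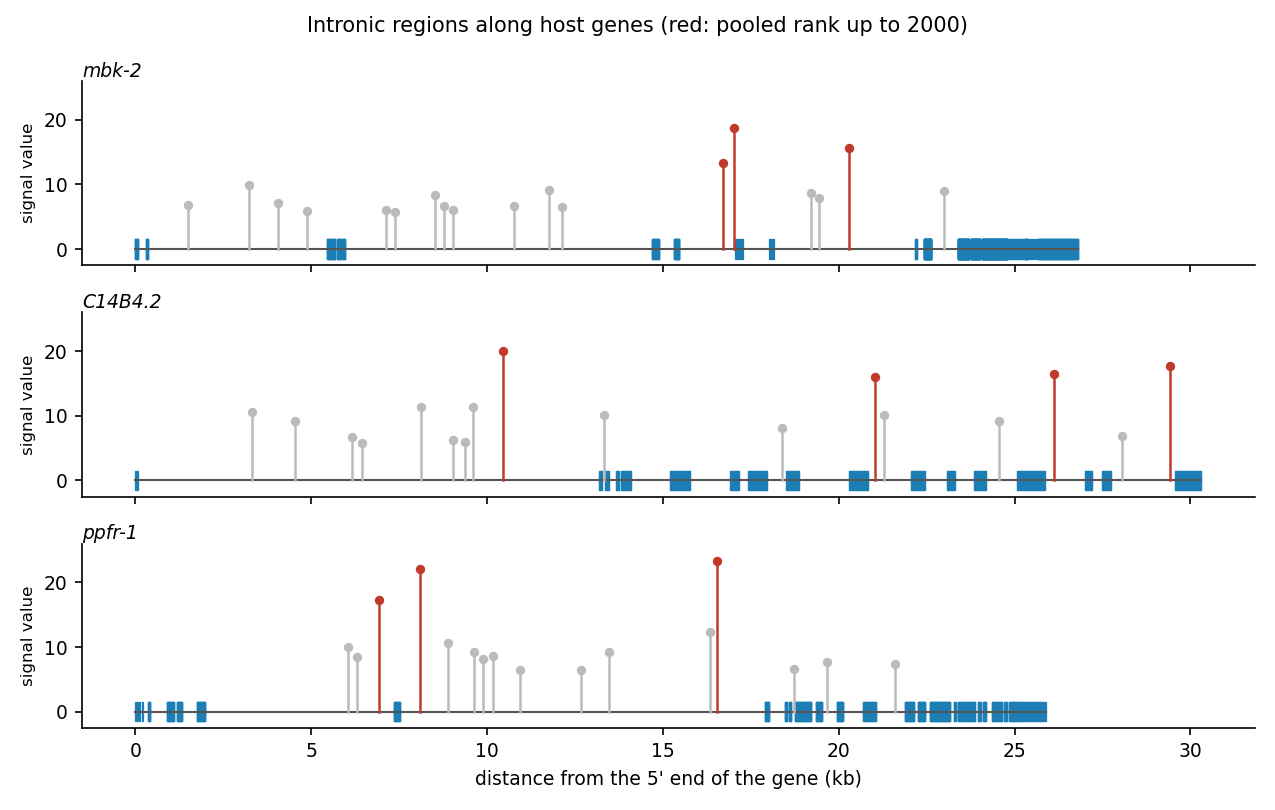
Signal value in the pooled list (y axis) of each intronic region against its distance from the 5′ end of the host gene in kb (x axis) for mbk-2, C14B4.2 and ppfr-1, with exons of all protein-coding transcripts as blue boxes. Red points rank up to 2000 and grey points rank lower, and the members spread through the long introns with 3, 4 and 3 red points.

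Hosts of known function were counted with 14 gene lists, as members up to rank 2000 per Mb of intron. Over all genes this was 17.6 in the pooled list, 18.5 in replicate 1 and 16.1 in replicate 2. The gene lists were chosen with earlier results of these data known. Their intervals count members singly, though several can share a host, as 3 do in daf-5. An excess in any gene list was therefore not tested. The list of Wnt, Notch, TGF-beta and Ras signalling genes, which includes the insulin receptor, had 34.1 (15 members, exact Poisson interval 19.1 to 56.3), 34.1 and 40.9, above the figure for all genes in each list. Their strongest members lay in daf-5, the Ski-like factor of the dauer TGF-beta pathway, with a signal value of 22.0, in daf-2, the insulin receptor, with 21.5, in mpk-1, the ERK kinase, with 18.1, and in lag-1, the Notch effector, with 16.9. All 4 were in first introns, of 14446, 11981, 8247 and 5917 bases. The daf-5 member had 16.9 in replicate 1 and 10.2 in replicate 2, at ranks 63 and 163. The next best repeated, in mpk-1, stood at ranks 545 and 217. These signalling genes also have long introns, with 52.9% of their intronic bases in introns over 2000 bases against 27.8% over all genes, and the part of intron length in their density was not tested.

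Genes of the synaptic vesicle cycle and axon transport had 48.0 per Mb (18 members, 28.4 to 75.8) and 42.6 in replicate 1 but 13.3 in replicate 2, so the high figure was not repeated. Their strongest members were in gsa-1, the stimulatory G protein subunit, with a signal value of 16.2, rab-3, the synaptic vesicle GTPase, with 16.0, the scaffold gene lin-10 with 16.0 and unc-64, syntaxin, with 14.1. Small GTPases and trafficking genes had 37.5, 37.5 and 28.2 from 4 pooled members (10.2 to 96.1), led by unc-108 and the adaptin gene apb-1. The apb-1 summit lay 50 bases upstream of a start of another gene, gpa-17. Cell adhesion and axon guidance genes had 29.1 (15.0 to 50.9), 19.4 and 31.6, led by unc-73, the calsyntenin gene casy-1, the Eph receptor gene vab-1 and the semaphorin gene smp-1. The unc-73 summit lay 214 bases upstream of a start of another gene, F55C7.2. Cytoskeleton and spectrin genes had 31.5 (13.6 to 62.0), 19.7 and 19.7, with dhc-4 first and the spectraplakin gene vab-10 second. Nuclear hormone receptor genes had 22.4 (9.66 to 44.1), 30.8 and 25.2, with nhr-19 first at a signal value of 22.0. The pooled intervals of the small GTPase, adhesion, cytoskeleton and nuclear hormone receptor lists all include the 17.6 of all genes.

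Basement membrane genes had 33.0 pooled (10.7 to 77.1, which includes the 17.6 of all genes) and 26.4 in replicate 1 but 6.61 in replicate 2. They were led by vab-10 at 17.3, which is also in the cytoskeleton list. The member in unc-52, perlecan, came next at 15.0 and had no region in replicate 2. Neuronal channel genes had 9.29 pooled (4 members, 2.53 to 23.8), 20.9 and 16.3, led by the glutamate-gated chloride channel gene avr-14 at 18.9. Homeobox genes, the class UNC-39 belongs to, had 10.1 (2 members, 1.22 to 36.5), 20.2 and 20.2, with ceh-99 and lim-7 first. Muscle genes had 4.77 (1 member, 0.121 to 26.6), 9.54 and 9.54, although 25 of 39 were hosts. The median signal value of their members was 7.47, near the 7.51 of all members, and the strongest, in zyx-1, had 15.2. The chromatin list had 4.16 (0.105 to 23.2), 16.6 and 12.5. Its only pooled member up to rank 2000 was that of zfp-1, with a signal value of 17.6. The chromatin list does not hold let-526, so its figure does not cover all chromatin genes with strong members. The pooled intervals of the neuronal channel, homeobox, muscle and chromatin lists all include the 17.6 per Mb of all genes. The 7TM chemoreceptor genes, sensory receptors of a large family, were low throughout, at 7.07 (7 members, 2.84 to 14.6), 8.08 and 5.05, and 195 of 1262 were hosts (15.5%). They have short introns, with 7.14% of intronic bases in introns over 2000 bases. Cuticle collagen genes had 7 members and none up to rank 2000 in any list, in 0.0544 Mb of intron. Ribosomal protein genes had 2 pooled members up to rank 2000 in 0.0174 Mb of intron, or 115 per Mb (13.9 to 415), in rpl-12 and rps-24, and their introns held no summit up to rank 2000 in either replicate list. The rpl-12 member, with a pooled signal value of 15.8, did overlap replicate regions at ranks 318 and 114, with summits that were not intronic.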

How the data were processed

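UNC-39 ChIP-seq was deposited as narrowPeak region lists for 2 replicates of whole L4 larvae, a pooled list and an optimal list. Per the labels, lists exist on ce10 and ce11. Those on ce10 were not used here, because the annotation read was that of WBcel235, the assembly behind ce11. The signal value and the −log10 q of each region are the authors' deposited values, made by their peak caller, and the scale of the signal is not stated, so signal values rank regions within a list only. Each relaxed list holds 30000 regions, 400 bases wide (404 in replicate 1). Read depth, control origin, aligner, peak caller and the IDR (irreproducible discovery rate) threshold behind the optimal list were not given in the sources used here. Weak regions therefore cannot be told from background by depth.

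Members, their host gene (the shortest protein-coding gene body holding the summit) and their intron (of the transcript with the longest spliced length among those with an intron there) came from the Ensembl annotation. A summit counts as intronic even where the region reaches an exon. Base shares were read on a grid of 50 bases, and 201-base windows 250 bases apart served as intronic background. Words of 6 bases were matched exactly, on either strand, in the 201 bases around a summit. With 1 group of 2 samples no test was made. Shares carry exact Clopper-Pearson intervals and counts exact Poisson intervals at 95%, for counting error only, and overlapping members were kept.

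Named genes are the hosts of the 25 strongest members and of the optimal peaks, the 10 members best by their worse replicate rank, the 10 hosts with most members, and up to 4 hosts per gene list. The members, the 14 gene lists and the words were chosen with earlier results of these data known. Scripts were tested on simulated regions and run with Python 3.11.15, numpy 2.4.6, scipy 1.17.1 and matplotlib 3.10.9.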

Additional observations from a re-analysis of the deposited data

How the results depend on the processing

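No paired analysis was possible because the 2 replicates form a single group and no test was made. The intronic share of autosomal regions, 32.6%, was 31.8% to 32.8% in single-replicate lists, 31.7% without summits in exons of other genes and 15.1% when the whole region had to be free of exons. For the 500 strongest autosomal regions it was 32.0%, with 30.4% to 35.6%, 43.0% for the 100 strongest and 19.6% for whole regions. The 12 members among optimal peaks became 5 among the stronger 31 peaks. First introns, 27.9%, gave 26.8% to 26.9% in single lists, 37.1% by the lowest order over transcripts and 34.6% in the 500 strongest members. Introns over 2000 bases, 29.7%, gave 28.7% to 29.5%, 28.7% by the shortest intron and 42.2% in the 500 strongest. The median signal value of 7.51 was 3.39 to 5.31 in single lists, whose scales differ. An overlap of at least 200 bases lowered members with regions in both replicates from 30.5% to 21.1% and the 71 within rank 2000 of both to 45, and a limit of rank 500 left 31. In the 500 strongest members GAGAGA, 23.8%, ranged over single lists from 18.4% to 21.6%, and was 13.6% within 50 bases, 35.0% over 400 bases and 39.0% in the 100 strongest. TGATAC or TGACAC, 13.0%, gave 13.4% to 15.4%, 6.40%, 25.8% and 16.0% in the same order. Their G+C content, 38.3%, was 42.7% in the 100 strongest. Members within 500 bases of a start, 23.8%, were 23.0% to 24.0% in single lists, 11.0% within 250 and 44.6% within 1000 bases. The causes of these shifts were not tested beyond what each narrower or wider window, overlap or list itself brings.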
